A study of Arabidopsis thaliana with 6 samples.

Results

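The cold response of cls8, a chilling-sensitive mutant of Arabidopsis thaliana, was set against that of the Col-0 wild type and of sfr6, a freezing-sensitive mutant. It was taken as the log2 fold between 4 °C and 20 °C within cls8 and compared, probe set by probe set, with the mean of the same folds in the other 2 lines. The 2 cls8 arrays among 6 in all gave the fold, and the other 4 arrays gave the comparison. The comparison covered 13648 of 22746 probe sets, those above a filter on low levels, of which 7343 paired with exactly 1 gene.

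All 3 lines were in the Col-0 background, and per the labels sfr6 and cls8 were EMS mutants. The seedlings were stratified for 4 days at 4 °C and grown on MS medium at 20 °C for 7 days. Their plates were then held in the light for 3 h, at 20 °C for 1 array of each line and at 4 °C for the other. Each ATH1 array, a short-oligonucleotide array of Affymetrix, received RNA from whole seedlings, 40 to 60 plants pooled. With 1 array for each line and temperature, no value has a replicate within its group. The titles of both cls8 arrays mark them as repeats, and those of the other arrays do not, so a repeat run and the cls8 line cannot be told apart. The mark is not the same in both titles, as only that of the 4 °C array carries a repeat number. What was repeated is not stated, so a change between repeats and the temperature within cls8 cannot be told apart either.

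Arabidopsis answers cold within hours. CBF transcription factors activate COR genes, whose products protect cells in the cold, while clock-linked genes and zinc-finger repressors are induced beside them. SFR6 is a subunit of Mediator, the complex that links transcription factors to RNA polymerase II, and COR gene induction is known to be weak without it. CLS8 encodes the large subunit of ribonucleotide reductase, which makes the deoxyribonucleotides for DNA synthesis in the nucleus and in chloroplasts, and cls8 plants are known to turn chlorotic in the cold with fewer chloroplasts. The 2 mutated genes were not analysed here, since no named probe set paired with them.

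The intensities are linear, with a trimmed mean of 100 on every array, and array medians ran from 41.7 to 45.2. The bright end of the scale differed between the cls8 arrays. The brightest probe set reached 3744 in cls8 at 20 °C and 5895 at 4 °C, against 4027 to 5668 on the other arrays, and 116 and 198 probe sets reached 2000, against 153 to 178 elsewhere. The probe set for 25S ribosomal RNA read 481.5 in cls8 at 20 °C and 1669.5 at 4 °C, while the wild type and sfr6 read 2558.9 to 2716.3 at 20 °C and 1424.1 to 1664.8 at 4 °C. The cls8 array at 20 °C had 922 outlier cells per the labels, and the range over the other arrays was 406 to 1101.

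The highest cls8 folds of named genes were in genes that were also higher at 4 °C in both other lines. AT4G33980, known as COR28 and a partner of COR27 in clock and cold regulation, went from 15.3 at 20 °C to 458.7 at 4 °C in cls8, a log2 fold of 4.01 ± 0.20 (SE of the fit, limma adjusted p = 1.00e-07). COR27 (AT5G42900) read 10.9 and 316.6, a log2 fold of 3.73 ± 0.22 (limma adjusted p = 4.94e-07). STZ (AT1G27730), a zinc-finger repressor of stress responses, read 29.4 and 332.1, and its log2 fold was 2.99. The thaumatin-like gene AT4G36010 had a log2 fold of 3.95, AT1G11210 one of 3.18 and AT1G68500 one of 3.10. In the wild type these 6 log2 folds lay between 2.79 and 3.81. In sfr6 they lay between 0.69, for AT1G68500, and 3.53.

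The lowest log2 fold of a named gene in cls8 was -3.42 for AT3G26510, which read 531.5 at 20 °C and 36.9 at 4 °C. AT1G23390, a Kelch F-box protein that controls the turnover of chalcone synthase, read 1437.1 and 156.1, a log2 fold of -3.09. AT2G20670, AT4G28240, AT5G03230 and AT3G52480 followed with log2 folds from -2.97 to -2.45. All 12 of these highest and lowest folds of named genes passed limma's test of the cold term within cls8, with adjusted p from 1.00e-07 to 0.00114, and none did so with no filter on low levels. These genes were picked by the size of the same fold, which favours passing, so the count is no finding of its own. Over all probe sets, 3.63% rose and 2.99% fell by that test. The error of that test has 1 residual degree of freedom, from the gap between the wild-type and sfr6 folds. It also has 12.2 prior degrees of freedom from a variance pooled over probe sets, which weighs more than a gene's own gap. In this test cls8 is assumed to vary like the wild type and sfr6.

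Of the 13648 probe sets, 236 were at least 2-fold higher at 4 °C in cls8 (1.73%) and 170 were at least 2-fold lower (1.25%). The wild type had 282 and 196 and sfr6 had 256 and 130. With limma, 495 probe sets rose in cls8 (3.63%) and 408 fell (2.99%), and with no filter 2 rose and 0 fell. Among the 236 higher probe sets, 120 were also 2-fold higher in both other lines, 63 in 1 of them and 53 in neither, and 222 were above 0 in both. Among the 170 lower probe sets, 62 were 2-fold lower in both other lines, 54 in 1 of them and 54 in neither, and 160 were below 0 in both. Those under 1.5-fold in both other lines numbered 17 in each direction. Across probe sets the cls8 fold correlated with the mean fold of the other lines at r = 0.748 (n = 13648), with a slope of 0.803. No array is shared by those folds, and probe sets are not independent replicates.

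**Figure D1:**
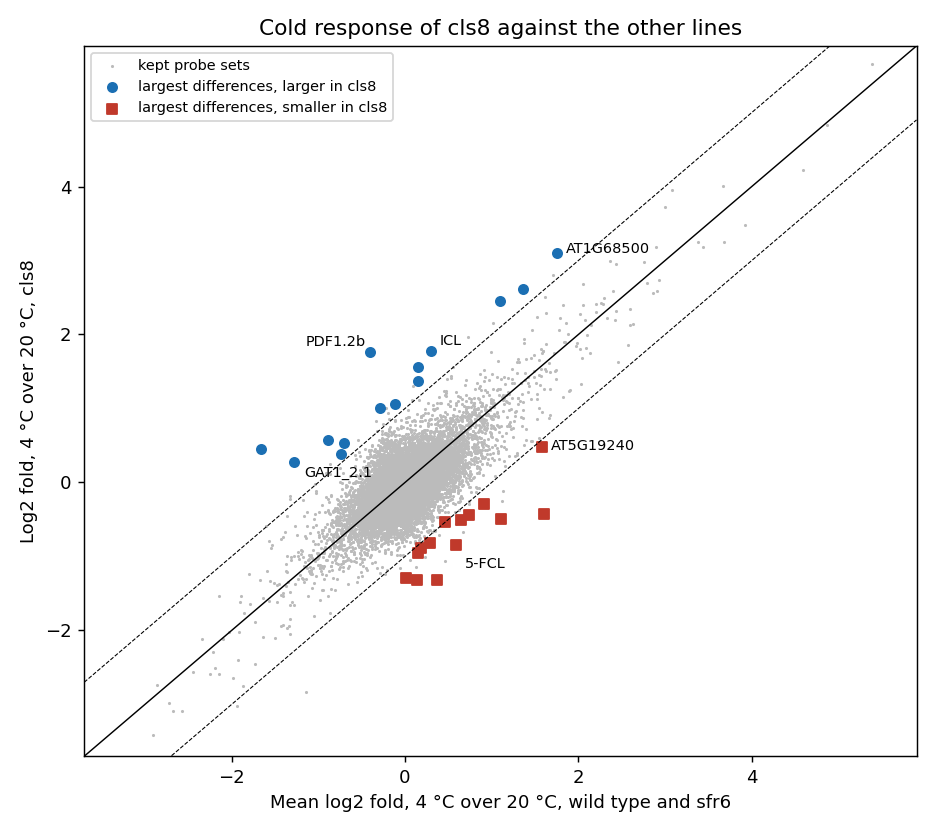
Each point is 1 of 13648 probe sets, with the mean log2 fold of the wild type and sfr6 on the x axis and the log2 fold of cls8 on the y axis. The solid line marks equal folds and the dashed lines a 2-fold difference. Coloured points are the 12 named genes and 2 unnamed probe sets with the largest differences on each side, and most other points lie between the dashed lines.

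The question of the comparison was where the cold response of cls8 departed from that of the other lines. The cls8 log2 fold exceeded the mean of the other lines by at least 1 (2-fold) in 33 probe sets (0.242%) and fell short of it by as much in 27 (0.198%). The same count, made for the wild type against the mean of its 2 counterparts, gave 22 and 30, and for sfr6 53 and 38. The SD of the difference over probe sets was 0.300 for cls8 and 0.290 for each other line. A larger fold in cls8 than in both other lines was seen in 4005 probe sets (29.3%) and a smaller one in 5315 (38.9%). In limma, the difference passed an adjusted p of 0.05 in 2 probe sets (0.0147%), PDF1.2b and the unnamed 261226_at, and 947 (6.94%) had an unadjusted p under 0.05. No named gene had a cls8 fold opposite in sign to both other lines with all 3 folds at least 1.5-fold in size.

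PDF1.2b had the largest positive difference. PDF1.2b (AT2G26020) encodes a plant defensin, a small antifungal peptide of a family known to be induced by jasmonate and ethylene. At 20 °C then 4 °C it read 190.7 then 105.4 for wild-type plants, 25.9 then 25.3 for sfr6, and 108.2 then 402.1 for cls8. The cls8 array at 4 °C was the highest of the 6, and the wild type went the other way. The log2 fold was 1.77 in cls8, against -0.78 for the wild type and -0.02 for sfr6, a difference of 2.17 ± 0.29 (SE, limma adjusted p = 0.0345). The limma adjusted p over the alternative pseudocounts, filters and normalizations ran from 2.12e-04 to 0.870, and the call was lost with no filter, without the intensity trend and under either other normalization.

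PDF1.2 (AT5G44420), the best-known member of the family, read 62.0 then 56.7 for wild-type plants, 1.8 then 6.9 for sfr6, and 44.6 then 137.1 for cls8. Here too cls8 at 4 °C was the highest array, while both sfr6 arrays were close to 0. PDF1.2 rose in cls8 (log2 fold 1.37, limma adjusted p = 0.00473), and its difference from the other lines was 1.22 ± 0.30 (limma adjusted p = 0.439). The probe set of PDF1.2b is of the kind that can share probes with related genes, so the signals of these near-identical defensins may not be separate. These were the only 2 jasmonate-list genes of 24 with a kept named probe set.

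ICL (AT3G21720) encodes isocitrate lyase of the glyoxylate cycle, which turns seed oil into sugar in young seedlings. It read 20.8 then 30.8 for wild-type plants, 226.8 then 270.2 for sfr6, and 13.3 then 80.1 for cls8. Both sfr6 arrays were higher than all others, and cls8 moved from the lowest array at 20 °C to above both wild-type arrays at 4 °C. ICL rose in cls8 (log2 fold 1.78, limma adjusted p = 1.16e-04), and its difference from the other lines was 1.48 ± 0.25 (limma adjusted p = 0.138).

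GAT1_2.1 (AT1G15040), of the class I glutamine amidotransferase family, read 111.7 then 41.4 for wild-type plants, 37.4 then 5.7 for sfr6, and 54.0 then 68.7 for cls8. Its log2 folds were -1.18 and -1.38 in the other lines and 0.28 in cls8, a difference of 1.56 ± 0.27 (limma adjusted p = 0.138). It was lower at 4 °C than at 20 °C in both other lines and not in cls8. The unnamed probe set 261226_at had the same order, with 223.0 then 79.5 for wild-type plants, 272.1 then 58.3 for sfr6, and 121.3 then 170.6 for cls8. Its log2 folds were -1.34, -1.98 and 0.45, a difference of 2.11 ± 0.27 (limma adjusted p = 0.0345), and the call was lost under the same 4 settings as that of PDF1.2b.

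For 3 further genes the difference was mostly one from sfr6. AT1G64890 read 74.2 then 263.4 for wild-type plants, 61.8 then 95.4 for sfr6, and 48.3 then 326.2 for cls8. AT1G68500 read 52.6 then 456.7, 18.4 then 38.2, and 39.7 then 445.6 in the same order. AT1G13730, which encodes a protein with NTF2 and RNA-binding domains, read 16.0 then 98.0, 59.7 then 115.7, and 14.4 then 159.7. In these genes the cls8 log2 fold was 2.45, 3.10 and 2.61, the wild-type fold 1.65, 2.82 and 1.90, and the sfr6 fold 0.53, 0.69 and 0.81, so cls8 stood nearer to the wild type than sfr6 did.

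The other named genes on this side were AT5G13520, a peptidase of the M1 family, psbA, AT2G26210, AT4G12490, a lipid-transfer-like protein, and AT1G51400, a small subunit of photosystem II. AT5G13520 read 71.0 then 63.9 for wild-type plants, 49.3 then 71.1 for sfr6, and 3.4 then 37.6 for cls8, so that the difference of 1.41 arose from a very low value in cls8 at 20 °C. AT1G51400 read 3547.7 then 1882.7, 2717.8 then 1816.7, and 2458.4 then 3229.4. Over the 12 named genes the difference ran from 1.13 to 2.17, with limma adjusted p from 0.0345 to 0.673. The cold term within cls8 passed in 9 of the 12, all higher at 4 °C, against 3.63% of all probe sets that rose. Picking genes for a larger fold in cls8 favours such passes.

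**Figure D2:**
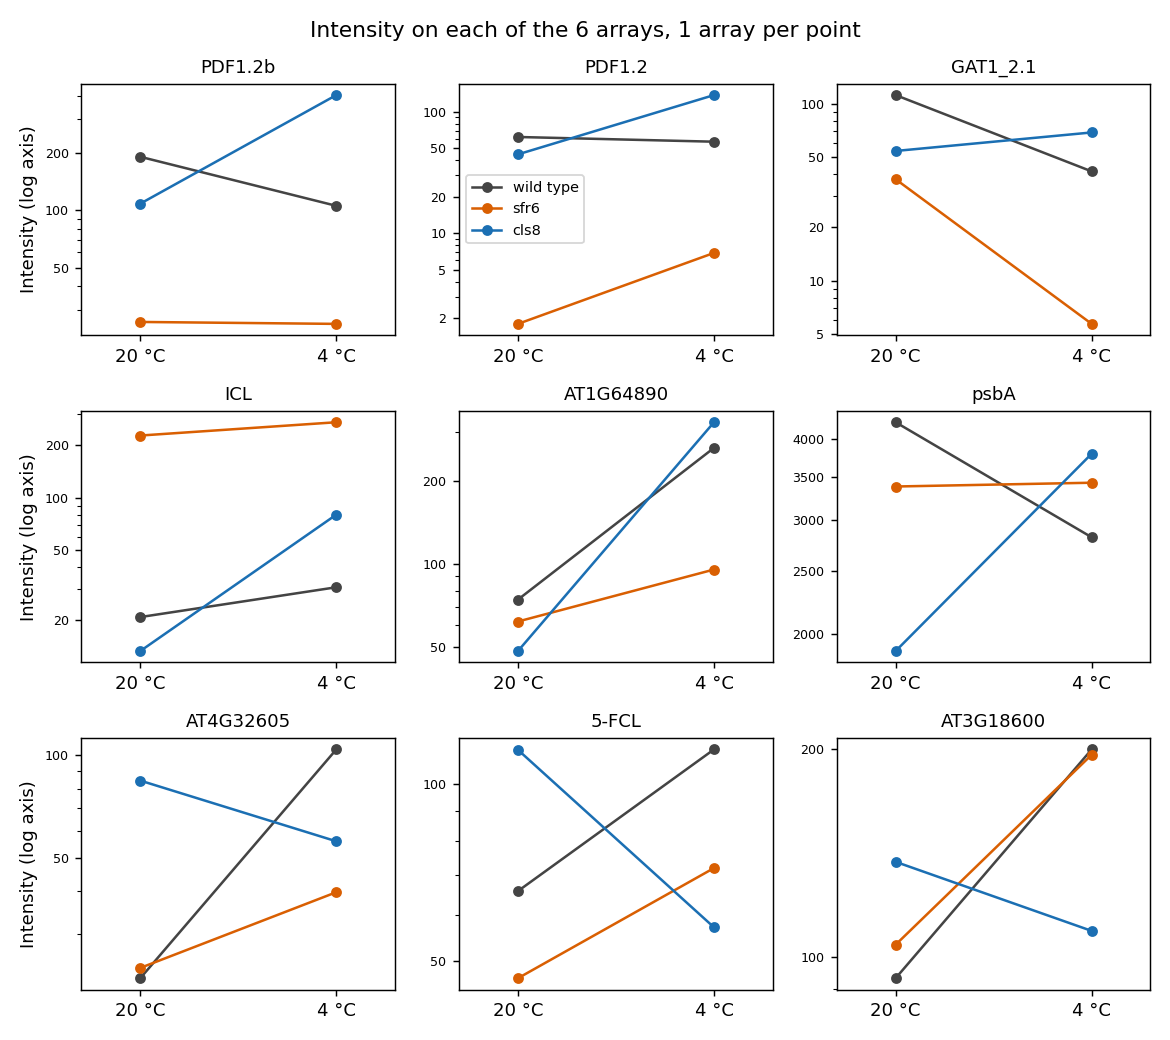
Intensity (log axis) at 20 °C and 4 °C on each of the 6 arrays for 9 of the named genes, with 1 point per array and lines joining the 2 arrays of a line of plants. In PDF1.2b, PDF1.2, GAT1_2.1, AT1G64890 and psbA the cls8 array is the highest of the 3 lines at 4 °C, and in 5-FCL and AT3G18600 it is the highest at 20 °C and the lowest at 4 °C.

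The probe sets with a smaller fold in cls8 were dimmer, with a median mean intensity of 55.1 against 107.3 for those with a larger one. In all 12 named genes cls8 lay above the mean of the other lines at 20 °C and below it at 4 °C. Picking genes for a large difference between folds favours such opposite gaps. 5-FCL (AT5G13050), 5-formyltetrahydrofolate cycloligase of folate metabolism, read 65.8 then 114.5 for wild-type plants, 46.8 then 72.0 for sfr6, and 114.3 then 57.1 for cls8. It was higher in the cold in both other lines and fell in cls8 (log2 fold -0.85, limma adjusted p = 0.0210). The difference was -1.44 ± 0.25 (limma adjusted p = 0.138). AT3G18600, a DEAD-box RNA helicase, read 93.3 then 199.7 for wild-type plants, 104.3 then 196.2 for sfr6, and 137.4 then 109.2 for cls8. Its log2 fold was 0.99 and 0.83 in the other lines and -0.30 in cls8, a difference of -1.21 ± 0.23 (limma adjusted p = 0.243).

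AT4G32605 had the largest negative difference of a named gene, -1.596 ± 0.39 (limma adjusted p = 0.430). It read 22.2 then 104.2 for wild-type plants, 23.8 then 39.7 for sfr6, and 84.4 then 56.0 for cls8, so that cls8 at 20 °C already lay above sfr6 at 4 °C. AT5G19240, a GPI-anchored protein, read 105.6 then 283.1, 129.8 then 508.1, and 136.0 then 195.9. All 3 lines were higher in the cold there, with log2 folds of 1.31, 1.86 and 0.48, and cls8 was the least so. ARR15 (AT1G74890), a cytokinin-induced response regulator, had the same order at a smaller difference of -0.79, reading 19.7 then 89.0, 21.0 then 100.8, and 17.1 then 43.1. ARR15 rose in cls8 (log2 fold 0.87, limma adjusted p = 0.0320).

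The rest of the 12 were AT5G18130, AT4G31330, the kinesin AT4G38950, AT3G52710, AT4G22450, the SEC23-like AT4G01810, PRA1.H, a prenylated-RAB acceptor, and AT5G50740, of the heavy-metal-binding family. Their differences ran from -1.45 to -1.002. AT4G01810 was the one among them whose sfr6 fold came near to that of cls8, at -0.54 against -0.96. Over all 12, the limma adjusted p of the difference ran from 0.138 to 0.612. The cold term within cls8 passed in 4, all lower at 4 °C, against 2.99% of all probe sets that fell. Picking genes for a smaller fold in cls8 favours such passes. In 9 of the 12 no array reached 150, against 5 of the 12 named genes with a larger fold. Of the unnamed probe sets, 256766_at had a difference of -2.03, which was -1.23 against the wild type alone. It read 26.9 then 16.4 for cls8, 25.9 then 55.7 for wild-type plants and 31.7 then 227.0 for sfr6. The probe set 260078_at had one of -1.69 (limma adjusted p = 0.0631), with 39.5 in cls8 at 4 °C against 67.0 to 119.6 on the other arrays.

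A difference between folds can arise at either temperature. Of the 33 probe sets with a larger fold in cls8, the level of cls8 stood further from the mean of the other lines at 4 °C in 24 and at 20 °C in 9, with a median gap of -0.39 (log2) at 20 °C and 0.80 at 4 °C. Of the 27 with a smaller fold, 15 stood further at 20 °C and 12 at 4 °C, with median gaps of 0.58 and -0.56. The gaps at the 2 temperatures had opposite signs in 25 of the 33 and in 26 of the 27. The difference in fold is the gap at 4 °C minus the gap at 20 °C. Picking probe sets for a large difference therefore favours opposite signs, and these counts are no finding of their own. Among the named genes, PDF1.2b, PDF1.2 and AT1G68500 were above the mean level of the other lines at both temperatures, and ICL and AT5G13520 were below that mean at both. At 20 °C the first 3 were above sfr6 and below the wild type, and ICL at 4 °C was above the wild type. The difference reached 2-fold against each other line on its own in 11 of the 33 and 8 of the 27. A gap in level at 1 temperature rests on 1 cls8 array.

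**Figure D3:**
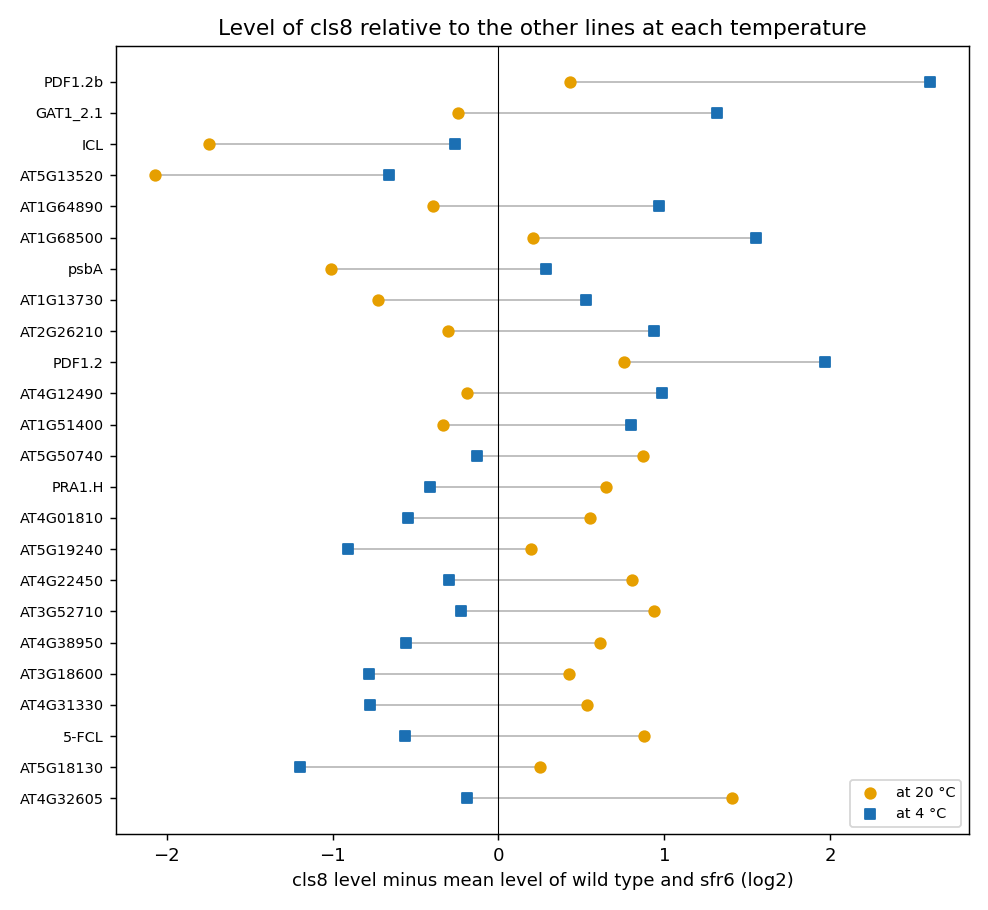
For each of the 24 named genes with the largest differences, the log2 level of cls8 minus the mean log2 level of the wild type and sfr6 at 20 °C (circles) and 4 °C (squares). In the 12 genes with a smaller fold all circles lie above 0 and all squares below it, which picking genes for a large difference favours. In the genes with a larger fold the squares lie to the right of the circles by definition.

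Genes of the CBF regulon, the classic cold-acclimation set, rose in cls8. Of 16 listed genes, 5 had a kept named probe set. By limma's cold term 4 of them rose in cls8, against 3.63% of all probe sets. With no filter on low levels, 2 probe sets passed that test in all. COR15A (AT2G42540), which protects chloroplast membranes, read 48.4 then 423.7 for wild-type plants, 33.2 then 101.3 for sfr6, and 97.2 then 573.0 for cls8, so cls8 was the highest line at both temperatures. COR15B (AT2G42530), its close homologue, read 171.5 and 793.6 in cls8, and its log2 fold of 2.12 lay between those of the wild type, 2.35, and sfr6, 1.94. The dehydrins LTI30 (AT3G50970) and COR47 (AT1G20440) had log2 folds of 1.52 and 0.99 in cls8, against 1.18 and 0.78 for the wild type and 0.65 and 0.34 for sfr6. DI21, a drought-induced gene, had a log2 fold of 0.42 and did not pass. The cls8 fold lay above both other lines in 3 of the 5 and below both in 0, against 29.3% and 38.9% of all probe sets, and after quantile normalization it lay above both in 2. The median difference was 0.35, against -0.04 over all probe sets. Against the wild type alone, the difference was -0.41 for COR15A, -0.23 for COR15B, 0.34 for LTI30 and 0.21 for COR47.

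Among clock genes, COR27 and AT4G33980 had their largest fold in cls8, with differences of 0.73 and 0.34, and GI (AT1G22770), a clock and flowering regulator, had -0.05. STZ, the 1 kept gene of 23 early cold transcription factors, had a difference of 0.63. Taken against the wild type alone, the differences were 0.48 for COR27, 0.20 for AT4G33980, 0.10 for GI and 0.20 for STZ. Taken against sfr6 alone, they were 0.97, 0.48, -0.19 and 1.06 in the same order. None of these 4 passed limma's test of the difference.

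**Figure D4:**
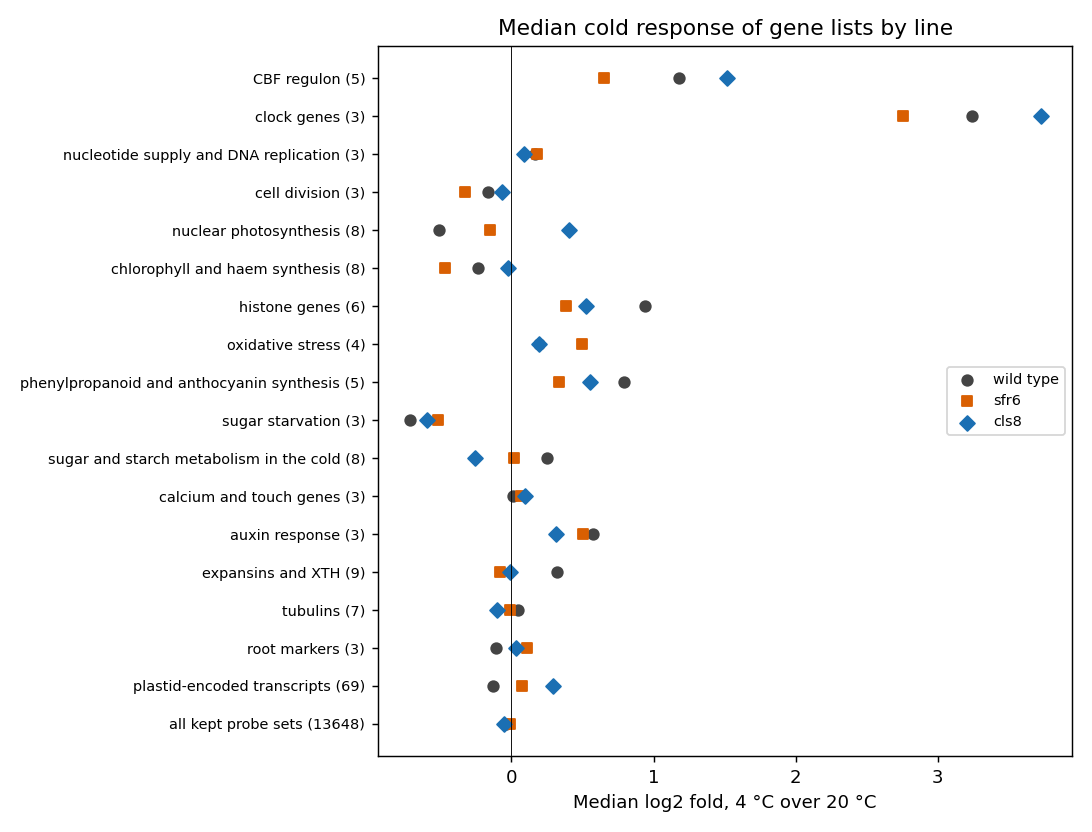
Median log2 fold at 4 °C over 20 °C in each line for the 17 gene lists with at least 3 kept members and for all probe sets, with the number of members in parentheses. The cls8 median lies above both other lines in 7 lists, by the widest margin for nuclear photosynthesis, and below both in 5.

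Nuclear photosynthesis genes had the largest median difference of the lists with at least 3 members. The 8 kept of 41 encode light-harvesting, photosystem, ATP synthase and Rubisco activase proteins. Their fold was larger in cls8 than in both other lines in 8 of 8, against 29.3% of all probe sets. RCA (AT2G39730), Rubisco activase, read 4093.2 then 2952.3 for wild-type plants, 3441.4 then 3517.0 for sfr6, and 2524.4 then 4002.7 for cls8. LHCB4.2 (AT3G08940), an antenna protein of photosystem II, read 3516.1 then 2409.4, 3183.0 then 2727.8, and 2464.6 then 3471.5. Both went from lowest at 20 °C to highest at 4 °C in cls8. The median log2 fold was 0.41 in cls8, against -0.51 for the wild type and -0.15 for sfr6, and the median difference was 0.75. Of the 8, 0 passed limma's test of the difference or of the cold term within cls8. The unadjusted p of the difference was under 0.05 in 8, against 6.94% of all probe sets.

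These genes are among the brightest on the array, and the difference moved with brightness over all probe sets. Of the 158 probe sets with a mean intensity of at least 2000, 157 had a larger fold in cls8 than in both other lines (99.4%), with a median difference of 0.60. The 135 of them outside the photosynthesis and plastid lists had a median of 0.58, with 134 larger than both. Between 1000 and 2000 the median was 0.25 (378 probe sets), between 500 and 1000 it was 0.09 (688), and below 500 it was -0.06 (12424). After quantile normalization, which gives all arrays one distribution, the median of the 135 was -0.01, and that of the photosynthesis genes 0.10, with 5 of 8 above both other lines. The part of brightness in the photosynthesis difference was not tested.

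**Figure D5:**
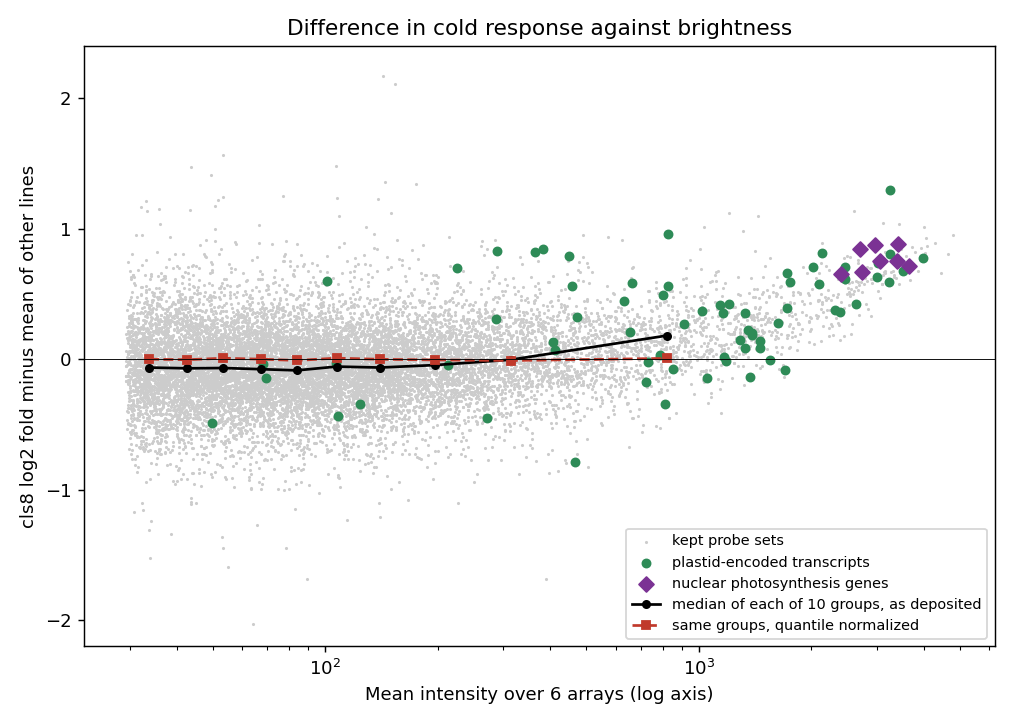
Difference between the cls8 log2 fold and the mean of the other lines (y axis) against mean intensity over 6 arrays (log x axis) for 13648 probe sets, with plastid transcripts as green circles and nuclear photosynthesis genes as purple diamonds. The black line joins the medians of 10 equal groups of probe sets by mean level, reaching 0.18 in the brightest group, where the quantile-normalized median (red dashes) is 0.01.

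Transcripts of the chloroplast genome, which encode core subunits of the photosystems, cytochrome complex, ATP synthase, NDH complex, ribosome and plastid RNA polymerase, were represented by 69 named probe sets, and all 69 passed the filter. The labelling used an oligo-dT primer, and plastid transcripts mostly lack stable poly(A) tails. The fold was larger in cls8 than in both other lines in 45 of 69, against 29.3% of all probe sets. It was smaller than both in 9, against 38.9%, and the median difference was 0.35. At a mean intensity of 2000 or more, 100% of plastid and 99.3% of other probe sets were above both lines. Between 1000 and 2000 the shares were 59.1% and 80.1%. They were 66.7% and 49.6% between 500 and 1000, and 45.0% and 25.8% below 500. At 20 °C all 69 read lower in cls8 than the mean of the other lines, by a median of 0.46 (log2), and at 4 °C 48 of 69 did, by a median of 0.12. Over all 13648 probe sets, 6588 read lower in cls8 at 20 °C and 7514 at 4 °C. The nuclear photosynthesis genes also read lower in cls8 at 20 °C in 8 of 8, and at 4 °C in 0.

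Within cls8, 8 of the 69 plastid transcripts rose by limma's cold term, against 3.63% of all probe sets. With no filter on low levels only 2 probe sets passed that test in all. psbA, the D1 protein of photosystem II, read 4250.3 then 2819.3 for wild-type plants, 3379.4 then 3425.3 for sfr6, and 1878.7 then 3798.7 for cls8, a difference of 1.296. That difference was 0.65 after quantile normalization and 0.84 after cyclic loess, which is below 2-fold. ndhJ, of the NDH complex, read 868.1 then 1030.4, 861.8 then 907.8, and 400.6 then 888.0, a difference of 0.96. For ndhJ the difference was 0.89 after quantile normalization and 0.79 after cyclic loess. rbcL, the Rubisco large subunit, read 880.6 then 1070.3, 857.3 then 1047.3, and 389.4 then 708.8, so that it stayed lowest in cls8 at both temperatures. In psbA and ndhJ the cls8 level at 20 °C was the low one, and at 4 °C it lay near the other lines or above them. The other 5 were petD, petN, ycf3, ndhK and rps16, and for rps16 the fold was larger in both other lines.

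The plastid complexes did not share 1 value. The median difference was 0.45 for 6 cytochrome b6f transcripts, 0.43 for 6 of the ATP synthase, 0.39 for 5 of photosystem I, 0.35 for 4 of the RNA polymerase and for 7 of the large ribosomal subunit, 0.27 for 15 of photosystem II, 0.06 for 10 NDH subunits and -0.06 for 8 of the small ribosomal subunit. The lowest single difference was -0.79, for rps18, which read 448.5 and 315.6 in cls8 and was higher at 4 °C in both other lines. The difference followed brightness here as well, with a median of 0.67 for 15 plastid transcripts at or above 2000 and 0.10 for 20 below 500, where 9 of 20 had a larger fold than both other lines. Across the 69, the correlation of the difference with the mean log2 level was 0.441. After quantile normalization the plastid median was 0.05, with 29 of 69 above both other lines and 21 below both, and the part of brightness in the plastid difference was not tested.

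Chlorophyll and haem synthesis genes, 8 kept of 25, had a larger fold than both other lines in 7, against 29.3% of all probe sets. Their median difference was 0.30, and 0.19 after quantile normalization. GSA1 (AT5G63570), which makes 5-aminolevulinate, read 523.9 then 376.6, 490.8 then 422.6, and 369.5 then 497.7. It too was lowest in cls8 at 20 °C and highest there at 4 °C. Its difference was 0.75, and 0.72 after quantile normalization, where the photosynthesis median was 0.10. PORB (AT4G27440), a light-dependent protochlorophyllide reductase, was the 1 of the 8 to pass the cold term within cls8. It fell there from 1736.4 to 836.7, between the folds of the other lines.

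DNA synthesis is where the mutated enzyme acts. Of 30 genes of nucleotide supply and DNA replication, 3 had kept named probe sets, with differences of 0.52 for AT5G26680, the flap endonuclease FEN1, -0.65 for ICU2 (AT5G67100), the catalytic subunit of DNA polymerase alpha, and -0.15 for PRL (AT4G02060), the MCM7 helicase subunit. ICU2 read 25.4 then 30.3 for wild-type plants, 29.0 then 34.8 for sfr6, and 38.0 then 23.4 for cls8, all dim. None of the 3 passed a test in cls8. Of the cell division genes, the Aurora kinases AUR1 and AUR2 had differences of -0.35 and 0.39 and TOPII, topoisomerase II, had 0.43. For 6 histone genes, all H2B, the median difference was 0.03, and AT2G28720 rose in cls8 from 147.9 to 343.1. No gene of the 24 in the DNA damage list had a kept named probe set.

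Of the sugar and starch genes, 0 of 8 kept were above both other lines and 4 below both, against 29.3% and 38.9% of all probe sets. Their median difference was -0.15, and also -0.15 after quantile normalization. The largest was TMT2 (AT4G35300), a vacuolar sugar transporter, which read 92.8 then 121.2, 107.4 then 116.9, and 154.1 then 116.1, a difference of -0.59. ATSPS4F, a sucrose phosphate synthase, had a difference of -0.37. SWEET2 rose in cls8 (log2 fold 0.77), and SWEET16 and QQS, a regulator of starch content, fell (-0.71 and -0.80). QQS read 291.0 and 161.4 in cls8 against 19.3 to 53.9 on the other arrays, yet its difference in fold was -0.02.

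The remaining lists had median differences nearer to 0. Of 4 oxidative stress genes, with a median of 0.06, GR1, glutathione reductase, rose in cls8 from 230.1 to 514.1 with a difference of 0.12, and SAPX, the stromal ascorbate peroxidase, had -0.66, reading 135.0 and 144.5 in cls8. UGT78D2, a flavonoid glucosyltransferase, rose from 90.7 to 309.4 with a difference of 0.33, in a phenylpropanoid list whose median over 5 genes was -0.11. The medians were 0.01 for 3 sugar starvation genes, 0.04 for 3 calcium and touch genes, -0.05 for 3 auxin genes, -0.07 for 9 expansin and XTH genes and -0.07 for 7 tubulins. Single passing members were AT2G41410, HAT2, XTH19 and XTH16, and XTH16 alone of these fell. Of the lists with 1 or 2 kept genes not yet given, the 2 heat shock genes had differences of -0.29 and 0.06 and WRKY22 had -0.14.

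Markers of tissues were few. The root markers PYK10, EXPA7 and EXPA18 had differences of 0.47, -0.14 and -0.06, and PYK10, the 1 bright gene among them, read 2584.8 and 3418.4 in cls8 and 2852.0 to 3338.2 on the other arrays. FMA, a guard cell marker, read 37.9 and 45.2 in cls8, and the epidermal AT1G22690 read 774.2 and 729.4, with differences of 0.21 and 0.27. The labelled tissue is whole seedlings, and both root markers and light-harvesting genes of green tissue were measured. In RNA from whole seedlings, fewer cells of a type and less RNA per cell cannot be told apart.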

How the data were processed

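Per the labels' protocols, biotin-labelled cRNA was hybridised to 6 ATH1 arrays, 1 for each group. The authors deposited linear intensity, scaled to a trimmed mean of 100 as found from the values; how it was computed and the genome build were not given in the sources used here. The number of arrays limits the precision. After 64 control probe sets were set aside, 14.1 (the 25th percentile of all values) was added, log2 was taken, and probe sets with a mean at or above the 40th percentile were kept. Folds are on this scale, which understates changes of dim genes. The platform's table gave 1 gene for 13513 probe sets, several for 503 and none for 8730, and 13436 matched RefSeq (TAIR10.1), used for names alone.

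The main results are values. A limma 3.58.1 fit (R 4.3.3, lmFit, and eBayes with trend) had line as a block, a cold term for cls8 and a cold term shared by the wild type and sfr6. Its tests were two-sided and adjusted by Benjamini-Hochberg over 13648 probe sets. The fit was also run on simulated data drawn from its own fitted variances, with the same error in all lines. That run cannot bear on whether cls8 varies like the other lines. SE is that of this fit.

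Named were the 12 largest differences each way among genes reaching an intensity of 50 on any array whose cls8 fold lay outside both other folds, the 6 highest and 6 lowest cls8 folds of probe sets with 1 gene, any member of 27 gene lists, and the 2 largest unnamed differences each way. The members and lists were chosen with earlier results of these data known. Of the lists, 17 had at least 3 kept genes, 7 had 1 or 2 and 3 had none (DNA damage, plastid gene expression, mitochondrial transcripts). The planned count of promoter motifs was not run. Alternatives were the pseudocount, filter, normalization, trend, fold threshold and each other line alone.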

Additional observations from a re-analysis of the deposited data

Results flagged for a closer look

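In 2 probe sets the cold response of cls8 differed from that of the other lines by limma's test of the difference itself. PDF1.2b had a difference of 2.17 on the log2 scale (limma adjusted p = 0.0345), with a larger fold in cls8 than in each of the 2 other lines. The unnamed probe set 261226_at had a difference of 2.11 (limma adjusted p = 0.0345), and it too was larger in cls8 than in each other line. Neither call held with no filter, without the intensity trend, or after quantile or cyclic loess normalization, and over the alternative pseudocounts, filters and normalizations the limma adjusted p of each ran from 2.12e-04 to 0.870. The error of this test has 1 residual degree of freedom, rests mostly on a variance pooled over probe sets, and includes no repeat of cls8.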

How the results depend on the processing

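No paired analysis was possible because each group held 1 array and no replicate number, beyond the block for line that the fit already had. Of 222 tested alternative values for the named genes and probe sets, 196 stayed on the same side of the threshold, 18 lost their call and 8 gained one. The 56 values against 1 other line alone had no test and kept their sign. With a pseudocount of 1, the median pseudocount of 43.6, no filter and a filter at the 60th percentile, the count of larger folds in cls8 (33) became 58, 13, 88 and 18, and that of smaller folds (27) became 108, 6, 127 and 11. Against the wild type alone the counts were 74 and 58, against sfr6 alone 60 and 93, and at 1.5-fold 343 and 447. The 2-fold counts within cls8 (236 higher, 170 lower) became 150 and 79 with the median pseudocount and 733 and 804 at 1.5-fold, and the lower count became 278 with a pseudocount of 1. The limma count for the difference (2) became 5 with a pseudocount of 1, 7 with the median pseudocount, and 0 with no filter, quantile normalization, cyclic loess or no trend. The limma counts for cold within cls8 (495 higher, 408 lower) became 2 and 0 with no filter and 313 and 193 after quantile normalization, and the lower count became 249 after cyclic loess. The correlation of folds (0.748) was 0.630 with no filter, 0.787 with the stricter filter, 0.770 after quantile normalization, 0.708 against the wild type and 0.677 against sfr6. The slope (0.803) was 0.711, 0.830, 0.673 and 0.709 with no filter, the stricter filter, the wild type and sfr6. The photosynthesis median (0.75) was 0.10 after quantile normalization and 0.30 after cyclic loess, and the plastid median (0.35) was 0.049, 0.079 and, against sfr6 alone, 0.21. Medians of small lists near 0 changed sign: histones to -0.23 against the wild type alone, oxidative stress to -0.061 (quantile) and -0.035 (cyclic loess), sugar starvation to -0.0060 (median pseudocount), -0.045 (quantile) and -0.077 (sfr6 alone), auxin to 0.022 (quantile) and 0.022 (cyclic loess), expansins and XTH to 0.0080 (quantile), 0.016 (cyclic loess) and 0.046 (sfr6 alone), and root markers to 0.47 (stricter filter) and 0.014 (cyclic loess). Cyclic loess was chosen after seeing the data. The cause of these shifts was not tested.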

Other observations

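Among probe sets at least 2-fold higher in both other lines, 41 of 161 were under 2-fold in cls8, and among those 2-fold lower, 21 of 83 were. Choosing probe sets by the other lines favours such a shortfall, and matching counts for those lines were not made. The median log2 fold of the 161 was 1.48 in cls8, 1.57 in the wild type and 1.49 in sfr6. For the 83 it was -1.35, -1.46 and -1.37. The genes named here were chosen after their values were seen. AT1G80750, a ribosomal protein of the L7 family, read 57.9 then 260.0 for wild-type plants, 96.5 then 233.8 for sfr6, and 114.1 then 180.9 for cls8, at 20 °C and at 4 °C. AT3G22660, an rRNA-processing protein, read 31.5 then 86.8, 16.2 then 90.4, and 27.2 then 46.8. AT3G23620, of a ribosome biogenesis family, read 74.0 then 220.0, 71.0 then 199.6, and 96.9 then 142.9. In all 3 the cls8 value at 4 °C was the lowest of the lines, and the differences were -0.94, -0.91 and -0.87, with limma adjusted p from 0.449 to 0.552. Among the lower genes, CCL, a clock-regulated gene of unstable mRNA, read 1707.9 then 611.7, 1005.9 then 321.1, and 1567.6 then 866.7, a difference of 0.69.

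A further defensin, PDF1.4 (AT1G19610), also chosen after its values were seen, lay just outside the 12 named genes. It read 36.8 then 27.3 for wild-type plants, 18.6 then 16.7 for sfr6, and 29.9 then 70.3 for cls8. It rose in cls8 (log2 fold 0.94, limma adjusted p = 0.0314), with a difference of 1.13 ± 0.29 (limma adjusted p = 0.440).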
